A study of Mus musculus with 2 samples.

Results

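The noncoding RNAs described here are Malat1 and Neat1, which stay in the nucleus, the long noncoding RNA Oip5os1, also known as Cyrano, and the noncoding host genes of small nucleolar RNAs (snoRNAs), Gas5 and the numbered Snhg genes. The genes were chosen with earlier results of these data known, and their probe sets were matched by gene symbol alone. A probe set is the group of array probes that is read as 1 value. It was taken when its only symbol was Malat1, Neat1, Oip5os1, Gas5, Snhg11 or any other Snhg name followed by a number. This gave 21 probe sets of 10 genes, out of 20380 probe sets of 12393 genes with a single symbol. Gas5 has 4 of them, Malat1 and Snhg1 have 5 each, and Neat1, Oip5os1, Snhg5, Snhg6, Snhg8, Snhg11 and Snhg16 have 1 each. A further probe set that lists Gas5 together with a snoRNA was not used.

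The study measured mouse iPSCs, body cells reprogrammed to a stem cell state (induced pluripotency), in 1 hybridized sample and 1 live sample, each read as polyA RNA on 1 expression array. Both samples came from cells kept in embryonic stem cell medium with serum and 2i, the inhibitors of MEK and GSK3 used for naive culture, and the labels give no genotype, strain or line for either. What the cells were hybridized with is not given in the labels. The comparison asks how closely RNA from hybridized cells keeps the profile of live cells. Values are log2 GCRMA values as the authors deposited them. A difference is always the hybridized value minus the live value, and a gene or probe set is called 2-fold higher or lower when its difference is at least 1 in size. With 1 array per group there is no replicate error and no test, the number of arrays limits the precision, and every difference describes these 2 arrays.

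A snoRNA host gene is transcribed as a long RNA whose introns hold snoRNAs, the small guides that direct chemical modification of ribosomal and other RNAs. The introns are cut out and trimmed to snoRNAs, and the spliced host RNA that remains is what a probe on the exons would detect. In mammalian cells the spliced RNAs of several hosts, Gas5 among them, meet ribosomes, do not code for a stable protein and are removed by nonsense-mediated decay, a pathway tied to translation. Malat1 lies in nuclear speckles, bodies rich in splicing factors, while Neat1 is the scaffold of paraspeckles, which hold RNA-binding proteins such as Nono and Sfpq. Oip5os1 is known in mouse for carrying a site that triggers decay of the microRNA miR-7.

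The first transcribed bases are shown because snoRNA hosts are known for terminal oligopyrimidine starts, a C followed by a run of C or T that places an RNA under growth-dependent translation. RefSeq start windows (build GRCm38.p6) were matched for 8 of the 10 genes by gene ID, not for Neat1 and Snhg6, and are printed 5′ to 3′ from 10 bases before the annotated start to 20 after it. Capitals mark a start at the annotated first base that consists of a C and at least 4 further bases that are each C or T, read on the transcribed strand only.
Gas5, upstream start, chr1:161034591-161034620, plus strand: gcgggcccgcgagctcgacagcccggagcc
Gas5, downstream start, chr1:161035156-161035185, plus strand: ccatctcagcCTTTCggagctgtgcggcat
Snhg1, chr19:8723477-8723506, plus strand: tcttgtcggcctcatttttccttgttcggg
Snhg11, chr2:158375703-158375732, plus strand: tgcggcactcactcacgcactcagcctgct
Snhg5, chr9:88522878-88522907, minus strand: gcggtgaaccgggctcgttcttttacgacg
Snhg8, chr3:123508317-123508346, minus strand: gttcagaagtCTCTTTggctgcgatccgcc
Snhg16, chr11:116671650-116671679, plus strand: gcgcaagcgcgatctcgtcctttccgaggt
Oip5os1, chr2:119594286-119594315, plus strand: ggggcggagcCTTTCgcgcctccgcccctg
Malat1, chr19:5802653-5802682, minus strand: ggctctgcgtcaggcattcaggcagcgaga

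Such a start was found at the downstream start of Gas5, at Oip5os1 and at Snhg8, that is in 3 of 9 windows, and in 2.51% of all 32851 RefSeq start windows. Anywhere within the 30 bases it was found in 5 of 9 windows, the others being Snhg5 and Snhg16, and in 35.8% of all windows.

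Pluripotency markers and array controls frame the values. All 10 pluripotency markers averaged 5 or more over the 2 arrays on the log2 scale, the level used here for a gene to count as measured, and their differences ran from -0.70 for Pou5f1 and -0.40 for Esrrb to 0.14 for Nanog and Zfp42. Of the fibroblast markers 3 of 10 reached the level, with a summed log2 value over all 10 of 47.4 in hybridized cells and 52.3 in live cells. The 3 measured ones were all lower in the hybridized sample, namely Col1a1, a fibroblast collagen, at 4.46 in hybridized cells and 6.17 in live cells, the matrix protein Fn1 (-0.53) and the filament protein Vim (-0.15), each at its brightest probe set. Other probe sets differed by 1.32 and -0.36 for Vim, by -0.54 for Fn1 and by 0.40, under the level, for Col1a1. At the brightest probe sets the median of the 3 was -0.53, and 0.27 when centred on the hybridization controls described next. With probe sets of a gene averaged, the median of the fibroblast markers at the level was -0.13. The other defining collagens, Col1a2 and Col3a1, read at most 2.50 on either array. The 18 hybridization control probe sets report labelled RNA added to the array mixture and not cellular RNA (the hybridization meant is that of the array). They differed by a median of -0.80, with a range from -1.22 to -0.15, so that centring on their median adds 0.80 to every difference. At the control probe sets for the ends of Actb, the 5' value minus the 3' value was -0.50 in hybridized cells and -3.02 in live cells. For Gapdh it was -0.12 in hybridized cells and -1.93 in live cells, and for Tfrc -3.23 in hybridized cells and -3.73 in live cells. The 2 arrays were thus 2.52 apart for Actb, 1.81 for Gapdh and 0.50 for Tfrc, with the hybridized value the higher each time. The part of these technical shifts in the differences below was not tested.

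All 21 probe sets reached the level, with means of the 2 arrays from 8.71 to 12.9. Of these, 6 passed 2-fold upward and 0 downward in the hybridized sample. Among all 11407 single-gene probe sets at the level, 13.1% were 2-fold higher and 12.8% were 2-fold lower. Among the 5785 of them whose mean lay in the same range as the noncoding RNAs, the shares were 10.3% higher and 7.43% lower. The median difference of the 21 was 0.16, against -0.07 over all probe sets at the level. Since 14 of the 21 belong to Gas5, Malat1 and Snhg1, probe sets of the same gene, and were picked with earlier results known, these counts describe the probe sets and are no independent evidence.

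**Figure D1:**
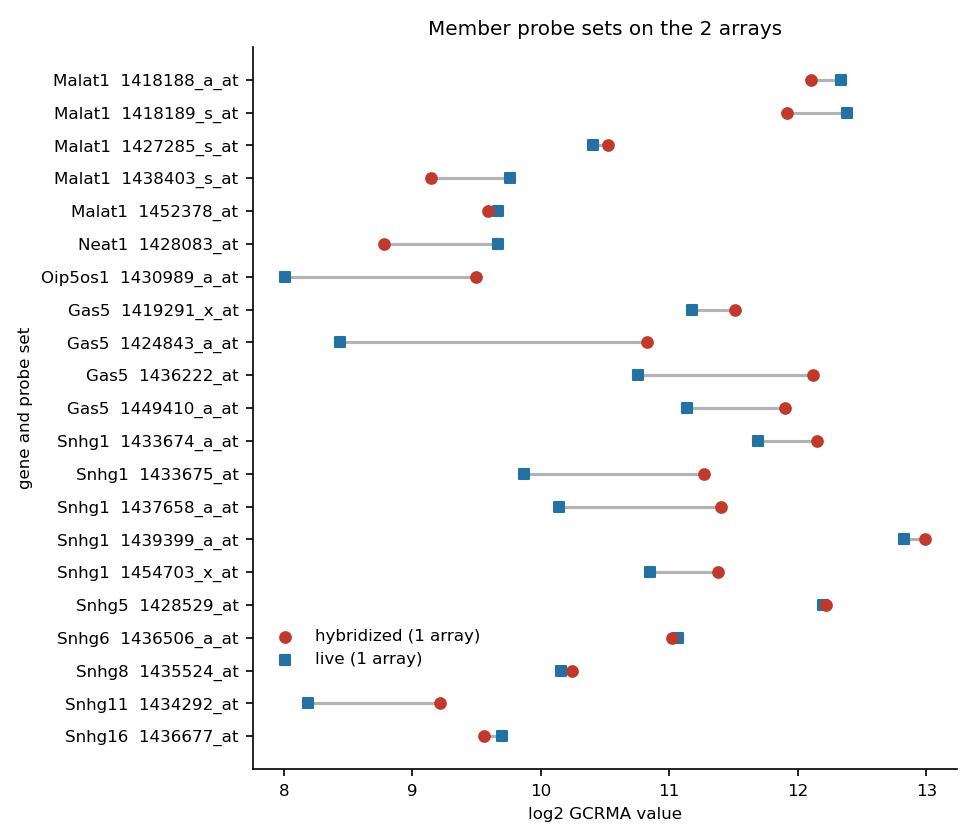
Log2 GCRMA value (horizontal axis) of each of the 21 probe sets (rows), with a red circle for the hybridized array and a blue square for the live array. All probe sets of Gas5 and Snhg1, and those of Oip5os1 and Snhg11, have the hybridized value to the right of the live value, while Neat1 and 4 of 5 Malat1 probe sets have it to the left.

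Of the nuclear RNAs, Neat1 and most readings of Malat1 were lower in the hybridized sample as deposited, none of them by 2-fold. Neat1 (Entrez 66961) read 8.78 in hybridized cells and 9.67 in live cells on its only probe set, 1428083_at. The difference of -0.89 was the lowest of the 21 and is short of 2-fold; 15.7% of all probe sets at the level had a lower difference. It remained below 0 under each of the 4 other scalings tried. The value was -0.96 after quantile normalization and -0.09 when centred on the hybridization controls. The 18 control differences ran from -1.22 to -0.15, so the sign of Neat1 under that centring is not settled. With a single probe set, the array gives no second reading of Neat1 and does not say which of its 2 annotated transcripts was read.

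Malat1 (Entrez 72289) gave 5 differences that lay close together, although its levels differ between probe sets. On 1418188_a_at it read 12.10 in hybridized cells and 12.34 in live cells, and on 1418189_s_at, designed from the same sequence record, 11.92 in hybridized cells and 12.38 in live cells. On 1438403_s_at it read 9.15 in hybridized cells and 9.76 in live cells, a difference of -0.61 and the largest of the 5. The remaining pair, again from a shared record, differed by 0.11 on 1427285_s_at and by -0.08 on 1452378_at.

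Thus 4 of 5 Malat1 probe sets were lower in the hybridized sample, each by less than 2-fold, and all 5 were positive, from 0.19 to 0.91, when centred on the hybridization controls. Their mean difference was -0.26 with an SD of 0.29 over the 5 probe sets, which share an RNA and 2 libraries and are not replicates. The range of 0.72 between the highest and the lowest was narrow for this array: 80.9% of 320 genes with 4 or more probe sets at the level had a wider range. In the RefSeq annotation Malat1 and Neat1 are direct neighbours on chromosome 19 with 0 genes between them.

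At their brightest probe sets, the 15 paraspeckle protein genes measured at the level held 0 genes past 2-fold in either direction and had a median of -0.22. Over all 7262 genes compared at their brightest probe set, 8.43% were 2-fold higher, 15.4% were 2-fold lower and the median was -0.17. Nono and Sfpq, which bind Neat1 in the paraspeckle, differed by -0.22 and -0.33, and their partner Pspc1 by 0.30. Dazap1 (-0.63) and Smarca4, a chromatin remodelling ATPase (-0.62), were lowest, and Tardbp (0.41) and Hnrnph1 (0.33), both RNA-binding proteins, were highest. The median of this list was 0.18 when probe sets of a gene were averaged and 0.58 when centred on the hybridization controls. The count of 0 genes higher rests on the choice of probe set and scaling. It was 1 when averaged, 3 without suffixed probe sets and 5 when centred on those controls, where 31.8% of all genes were higher. In each of these settings 0 genes were 2-fold lower. Other probe sets of Tardbp were 0.64, 1.10 and 1.80 higher, the last on 1455655_a_at.

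Nuclear speckle proteins, which share the compartment of Malat1, had a median of 0.19 over 16 genes. Of these, 2 were 2-fold higher and 1 was 2-fold lower, beside 8.43% and 15.4% of all genes. Son, a scaffold protein of speckles, read 12.03 in hybridized cells and 10.58 in live cells, but its 6 probe sets ranged from -0.61 to 2.65. Thoc2, of the mRNA export complex THO, was 1.15 higher, and its second probe set was 1.81 higher. Acin1, a splicing-associated protein, was lower by 1.43 where it read brightest, whereas its second probe set was 2.38 higher. Thoc1, a second THO subunit, differed by -0.68 where it read brightest, and by 0.18, -0.17 and 0.61 on its other probe sets. Centred on the hybridization controls the list had 8 genes 2-fold higher and 0 lower. Under that centring 31.8% of all genes were higher and 2.84% lower. Without suffixed probe sets 4 genes of the list were higher and 0 lower, with a median of 0.49. When probe sets of a gene were averaged, 3 were higher and 0 lower, with a median of 0.55. Shares over all genes are not given for these last 2 settings.

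Oip5os1 (Entrez 66602) was among the members further above the live sample. On its only probe set, 1430989_a_at, it read 9.50 in hybridized cells and 8.01 in live cells, a 2.81-fold difference. Of all probe sets at the level, 6.25% had a larger difference than its 1.49. Under the other 4 scalings the difference stayed above 1, from 1.46 after quantile normalization to 2.29 when centred on the hybridization controls. A second reading of Oip5os1 is lacking.

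Gas5 (Entrez 14455), a host named for its accumulation in growth-arrested cells, was higher in the hybridized sample on each of its 4 probe sets. On 1424843_a_at it read 10.83 in hybridized cells and 8.44 in live cells, a 5.24-fold difference and the highest of the 21, exceeded by 1.86% of all probe sets at the level. On 1436222_at it read 12.12 in hybridized cells and 10.76 in live cells, a 2.57-fold difference. Both were above 2-fold under all 5 scalings.

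The other readings of Gas5 were closer. On 1449410_a_at, its brightest probe set, it read 11.90 in hybridized cells and 11.14 in live cells. On 1419291_x_at it read 11.51 in hybridized cells and 11.18 in live cells. These differences, 0.76 and 0.33, fell short of 2-fold except when centred on the hybridization controls, where they were 1.56 and 1.13.

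The size of the Gas5 difference therefore depended on the probe set, from 0.33 to 2.39, with a mean of 1.21 and an SD of 0.89 over the 4. Such a range is not unusual on these arrays: 30.0% of the 320 genes with 4 or more probe sets had a wider one. A gene with every probe set above 0 was not rare either, at 17.5% of the 320. RefSeq lists 8 transcripts of Gas5 with 8 snoRNA genes inside its bounds, and the files do not say which exons or introns each probe set covers. Its bounds also overlap those of Zbtb37, whose signal cannot be told from its own where they share sequence; the Zbtb37 probe set was under the level at 3.23 in hybridized cells and 4.09 in live cells.

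Snhg1 (Entrez 83673), host of a cluster that includes Snord22, was likewise higher on each of its 5 probe sets. On 1433675_at it read 11.27 in hybridized cells and 9.87 in live cells, a 2.64-fold difference. On 1437658_a_at it read 11.40 in hybridized cells and 10.14 in live cells, a 2.39-fold difference. These were the 2 that passed 2-fold, and they did so under all 5 scalings.

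The other 3 Snhg1 probe sets differed by 0.53 on 1454703_x_at, 0.46 on 1433674_a_at and 0.16 on 1439399_a_at. The last is the brightest, at 12.99 in hybridized cells and 12.83 in live cells. The probe sets 1433675_at and 1433674_a_at come from the same sequence record, yet the first differed by 1.40 and the second by 0.46. Centred on the hybridization controls, 4 of the 5 were 2-fold higher and 1439399_a_at stood at 0.96. The Snhg1 mean was 0.76 with an SD of 0.54 over the 5, and RefSeq places 8 snoRNA genes inside it, as many as in Gas5.

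In both Gas5 and Snhg1 the order of the differences was the reverse of the order of the live values: the lower a probe set read in the live sample, the larger was its difference. The live value is part of the difference, which by itself favours such an order, and the hybridized values did not give this order in full in either gene.

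**Figure D2:**
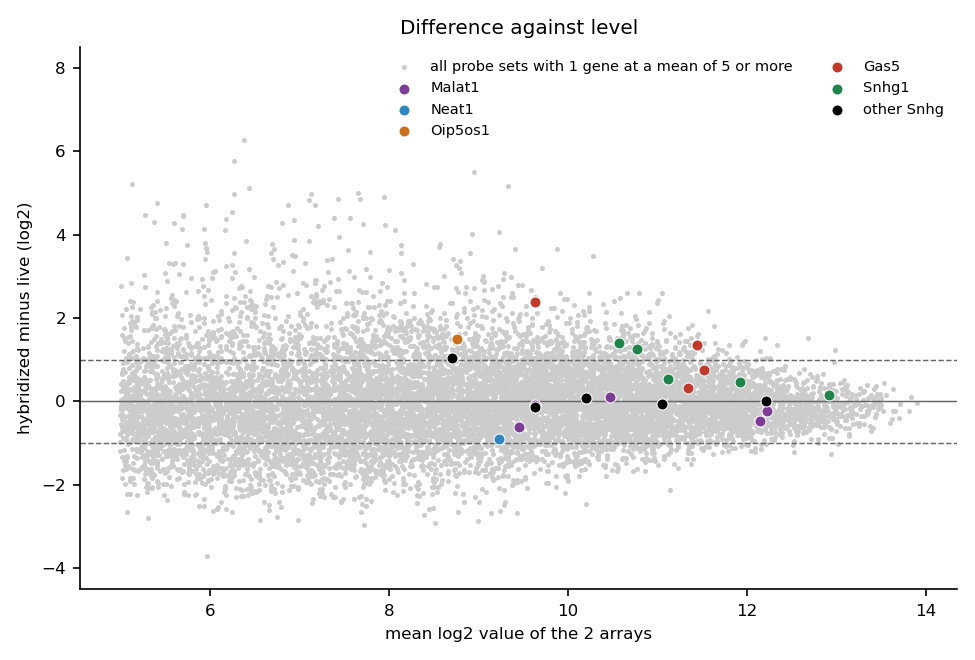
Difference (hybridized minus live, log2, vertical axis) against the mean log2 value of the 2 arrays (horizontal axis) for 11407 probe sets in grey and the 21 noncoding RNA probe sets in colour, with dashed lines at 2-fold. Differences of all probe sets narrow at high level, and the Gas5 and Snhg1 points lie above 0 while the Malat1 and Neat1 points lie at or below it, apart from 1 Malat1 probe set at 0.11.

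Snhg11 (Entrez 319317), a host known mainly from brain, read 9.22 in hybridized cells and 8.19 in live cells on 1434292_at, a 2.04-fold difference. At 1.03 it was just past 2-fold as deposited and just under it, at 0.99, after quantile normalization. Of 11 neuronal markers 3 reached the level, and the summed log2 value over all 11 was 51.65 in hybridized cells and 53.3 in live cells. Stmn2, a microtubule regulator, was 1.27 higher, Tubb3, a neuronal tubulin, was lower by 1.53 and Nefl, a neurofilament protein, by 0.17. The defining markers Rbfox3, Snap25 and Syt1 read at most 2.51 on either array. In a bulk sample fewer cells of a type and less RNA per cell cannot be told apart.

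The other 4 hosts were nearly level between the arrays. Snhg5 (Entrez 72655), host of U50 snoRNAs, read 12.22 in hybridized cells and 12.20 in live cells on 1428529_at. Snhg8 (Entrez 69895), which holds Snora24, read 10.24 in hybridized cells and 10.16 in live cells on 1435524_at. Snhg6 (Entrez 73824), which holds Snord87, read 11.02 in hybridized cells and 11.07 in live cells on 1436506_a_at.

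Snhg16 (Entrez 66293), which holds 3 genes of the Snord1 family, read 9.56 in hybridized cells and 9.70 in live cells on 1436677_at. These 4 differences ran from -0.14 to 0.08, within the middle of all probe sets, and their signs changed with the scaling for Snhg6 and Snhg16. The annotated bounds of Snhg6 overlap those of Mcmdc2, so its reading may include that gene. RefSeq counts 2 snoRNA genes inside Snhg5, 1 each inside Snhg6 and Snhg8, and 2 inside Snhg11. At the brightest probe set alone, the measure used for the gene lists below, Snhg1 at 0.16 lies near Snhg8 at 0.08, and Gas5 and Snhg1 have more probe sets than the others.

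Over the 14 host probe sets the median difference was 0.50. Of them, 5 were past 2-fold upward, 0 downward and 12 above 0. Among all probe sets at the level 13.1%, 12.8% and 46.4% were so. In the level range of the members these shares were 10.3%, 7.43% and 49.0%. Repeat readings carry much of the host counts: Gas5 gave 4 of the 14 and Snhg1 gave 5. Each gene had all of them above 0 and 2 past 2-fold. At the brightest probe set of each of the 7 hosts, Snhg11 alone passed 2-fold. Centred on the hybridization controls, 10 of all 21 member probe sets were 2-fold higher, when 37.1% of all probe sets were, and 20 of 21 lay above 0, Neat1 being the exception, as did 81.5% of all probe sets. Centring on the median probe set or correcting for level by loess left 6 of 21 past 2-fold upward, against 14.3% and 14.1% of all probe sets, and quantile normalization left 5, against 12.8%. Without probe sets whose suffix marks probes shared between transcripts or genes (_a_at, _s_at and _x_at), 8 remained and 3 were 2-fold higher, Gas5 1436222_at, Snhg1 1433675_at and Snhg11, against 13.5% of all unsuffixed probe sets. Probe sets for Oip5os1 and Snhg6 were suffixed and drop out there.

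**Figure D3:**
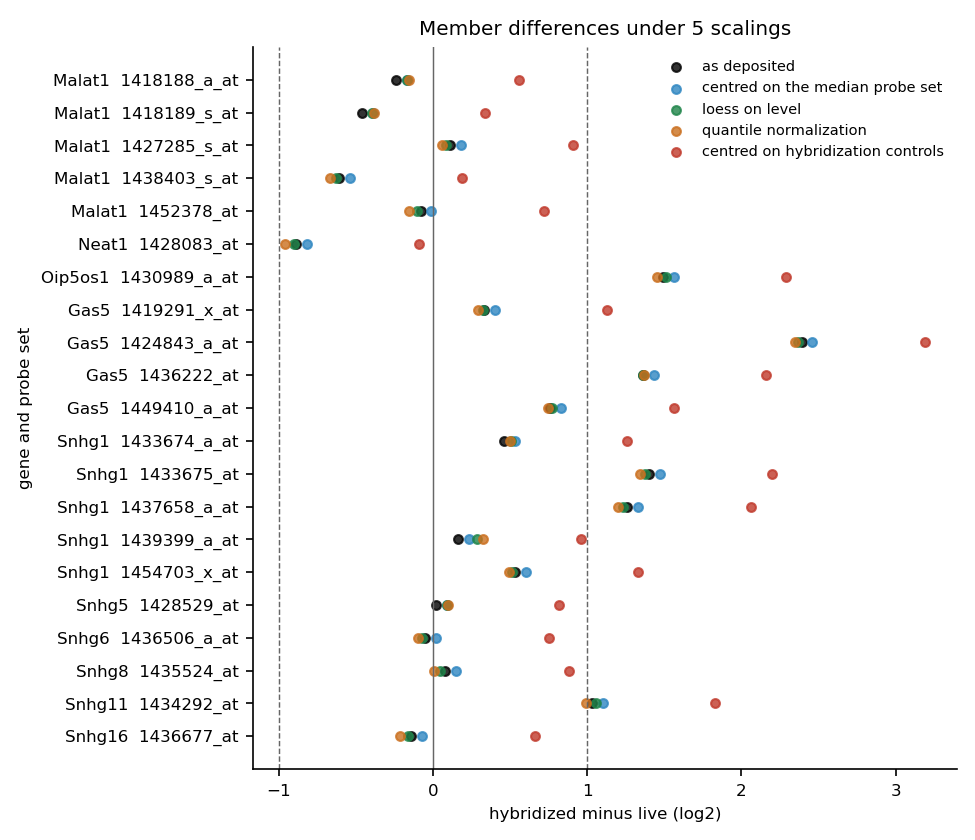
Difference (hybridized minus live, log2, horizontal axis) at each of the 21 probe sets (rows) as deposited and under 4 other scalings (colours), with dashed lines at 2-fold. The median, loess and quantile scalings stay close to the deposited difference, and centring on the hybridization controls adds 0.80 to each, which leaves Neat1 at -0.09 as the only one below 0.

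The 3 genes with a terminal oligopyrimidine start at the annotated base, shown above, differed by 0.33 to 2.39 (Gas5), 1.49 (Oip5os1) and 0.08 (Snhg8), so both higher and level members have it. Snhg1 and Snhg11 have no match at the annotated base. An annotated start can lie some bases from the start used in these cells, and no match says only that these letters are not at this position. Among the 5997 genes measured at the level that have a start window, 8.38% of 191 with this start and 8.04% of 5806 without it were 2-fold higher, with medians of -0.16 and -0.17.

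Protein-coding genes that host snoRNAs, most of them for ribosomal proteins, translation factors and nucleolar proteins, gave 29 genes at the level out of 47 listed. Of these, 2 were 2-fold higher and 0 were 2-fold lower, beside 8.43% and 15.4% of all genes. The median was -0.01, or 0.79 when centred on the hybridization controls. Rabggtb, a subunit of Rab geranylgeranyl transferase, read 11.28 in hybridized cells and 9.91 in live cells. Nop58, a core protein of the box C/D snoRNP, read 11.60 in hybridized cells and 10.46 in live cells. The lowest were the ribosomal protein genes Rpsa (-0.86) and Rps2 (-0.70). Each of these 4 named genes has 1 probe set at the level.

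The proteins that bind and assemble snoRNAs had a median of -0.06 over 14 genes. Of these, 3 were 2-fold higher and 0 were 2-fold lower, beside 8.43% and 15.4% of all genes. Nolc1, a nucleolar chaperone of snoRNPs, was 1.88 higher at its brightest probe set, where live cells read 10.12, but its other 2 probe sets differed by -0.55 and 0.57. Nufip1, a box C/D assembly factor, was 1.45 higher on its only probe set. Nop58, already given, is the third. Nop10, of the box H/ACA snoRNP, was lowest at -0.90, with -0.06 on its second probe set, followed by Fbl, the box C/D methyltransferase fibrillarin, at -0.46 with 0.25 on its second. The median was 0.44 over probe sets free of the suffixes named above.

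Factors of nonsense-mediated decay and the exon junction complex, the route that removes the spliced RNA of several hosts, had the lowest median of these lists at -0.58 over 9 genes, with 0 genes past 2-fold upward and 2 downward, against 8.43% and 15.4% of all genes. The number lower was 1 under the loess correction, at a level of 7, without suffixed probe sets and when probe sets were averaged. Smg5, which promotes decay of the recognised RNA, read 9.34 in hybridized cells and 10.53 in live cells, and its second probe set differed by -0.47. Smg8, a partner of the kinase Smg1, read 5.98 in hybridized cells and 7.06 in live cells. The central helicase Upf1 differed by -0.38. Casc3, a core exon junction protein, was 0.61 higher. Gspt1, a translation release factor, was 0.29 higher where it read brightest, and 0.54 and 1.55 higher on its other probe sets. Centred on the hybridization controls the median was 0.22, with 2 genes 2-fold higher and 0 lower, against 31.8% and 2.84% of all genes, so the sign of the list rests on the scaling.

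Factors of nuclear RNA processing and turnover had a median of 0.02 over 9 genes. Of these, 1 was 2-fold higher and 0 were 2-fold lower, beside 8.43% and 15.4% of all genes. The number higher was 0 after quantile normalization and when probe sets of a gene were averaged. Centred on the hybridization controls it was 4, beside 31.8% of all genes, and the list median was 0.82. Xrn2, the nuclear exonuclease, read 10.09 in hybridized cells and 9.06 in live cells, and 1.00 higher on a second probe set at the level. Rpp30, a subunit of RNase P, was 0.81 higher, with -0.88 on a dimmer probe set. Elac2, which trims tRNA ends, and Zcchc8, of the nuclear exosome targeting complex, each differed by -0.69, while both other probe sets of Elac2 were slightly higher in the hybridized sample.

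Other long noncoding RNAs from a list of 39 were seldom at the level, with 12 on the array and 5 measured. All 5 were above 0, none by 2-fold, with a median of 0.30. Of all 7262 genes, 2982 were above 0 and 8.43% were 2-fold higher. Xist, the RNA of X inactivation, read 7.19 in hybridized cells and 6.42 in live cells at its brightest probe set, while its other 2 probe sets differed by 1.76 and -0.45. Pvt1 (0.35), Norad (0.30), Tug1 (0.26) and Rian (0.02), an imprinted RNA, completed the list. Meg3, a neighbour of Rian, was under the level at 3.89 in hybridized cells and 5.45 in live cells.

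**Figure D4:**
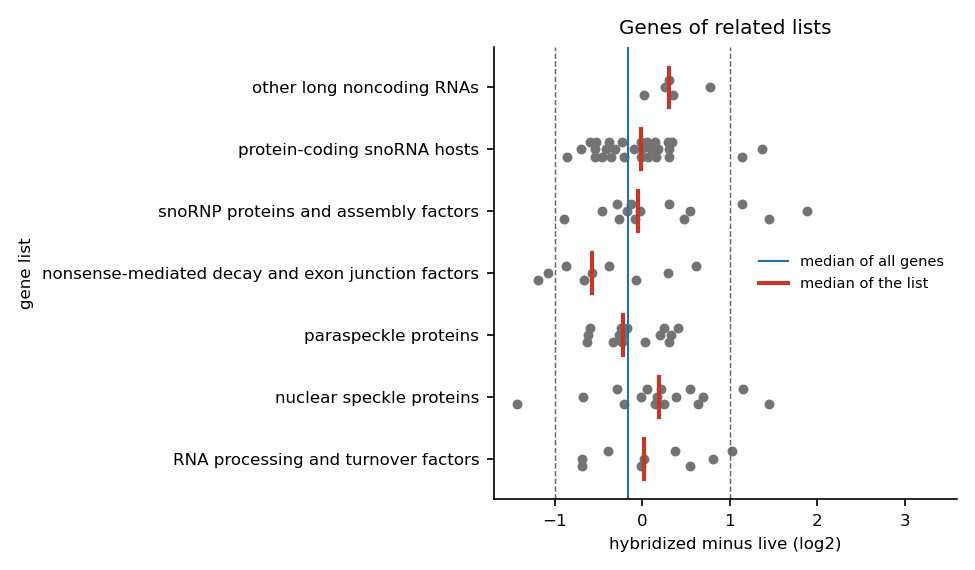
Difference (hybridized minus live, log2, horizontal axis) of each gene at the level, at its brightest probe set, in 7 related gene lists (rows), with the list median as a red bar, the median of all genes as a blue line and dashed lines at 2-fold. The decay list has its median lowest, at -0.58, and the other long noncoding RNAs have theirs highest, at 0.30.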

How the data were processed

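RNA from 1 hybridized and 1 live sample of mouse iPSCs was, per the labels, taken up in Trizol LS, amplified by a NuGEN Ovation kit and biotin-labelled as cDNA. The authors deposited 1 log2 value per probe set and array. GCRMA and affy are named, per the submitters' processing notes, with no version given in the sources used here. The base of the logarithm was inferred, not read from the file, from the method and the range of 1.02 to 14.24. The table holds 22690 probe sets, 64 of them controls; the 691 with several genes and the 1555 unnamed here were left out. Of 12393 genes, 12369 matched RefSeq gene IDs (assembly GRCm38.p6), a table used for biotypes, overlaps and start windows. The files name no genome build.

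For members every probe set is reported. Each list gene is represented by its brightest probe set over both arrays, if that averages 5 or more in log2. From each list the 2 highest and 2 lowest genes at that level are named; Nono, Sfpq, Pspc1, Upf1, Meg3, the markers under the level and the remaining long noncoding RNAs were added after their values were seen. Members and lists were chosen with earlier results of these data known. No test was made, because each group has 1 array. The alternatives were other scalings (median, loess with span 0.3, quantile, hybridization controls), level limits, fold thresholds, probe-set suffixes and averaging of probe sets. The counting and scaling steps were tested on simulated data. Python 3.11.15 was used, with statsmodels 0.14.6 for loess, numpy 2.4.6, pandas 2.3.3 and matplotlib 3.10.9.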

Additional observations from a re-analysis of the deposited data

How the results depend on the processing

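No paired analysis was possible because each group has 1 array. Of the 21 probe sets, 6 were 2-fold higher and 0 lower as deposited, beside 13.1% and 12.8% of all probe sets at the level. The number higher was 10 when centred on the hybridization controls, beside 37.1% of all probe sets. Without suffixed probe sets it was 3 of 8, beside 13.5%. At a threshold of 4-fold 1 was higher, and at 1.5-fold 7 were higher and 2 lower. Shares over all probe sets are not given for these 2 thresholds or for the level limits that follow. These counts therefore cannot be read as an excess over all probe sets. Under the level limits of 4, 7, none or 5 on both arrays the number 2-fold higher stayed at 6, since all members read above 7 on both arrays. Centred on the hybridization controls, the list medians were 1.1 for other long noncoding RNAs, 0.79 for protein-coding hosts, 0.745 for snoRNP proteins, 0.22 for decay factors, 0.58 for paraspeckle proteins, 0.99 for nuclear speckle proteins and 0.82 for processing factors, by construction 0.80 above the deposited medians. Under the remaining alternatives each list median and each gene's mean or median over its probe sets moved by less than 0.73. That value is the SD of a single probe set, taken from the gaps between 2 probe sets of a gene (2720 genes at the level). The gap itself had an SD of 1.03. Neither value covers biological or preparation error. Averaging probe sets changed the sign of 3 of the 7 list medians, as did leaving out suffixed probe sets. No member difference of 2-fold or more changed sign under the scalings run. No detection calls were used, and the level of 5 was set by choice.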

Other observations

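Beyond the listed RNAs, the array held 103 other genes that RefSeq types as long noncoding, a set taken after the values were seen, and 21 of them reached the level. In the hybridized sample 1 of these was 2-fold higher and 2 lower, with a median of -0.20, beside 8.43% higher, 15.4% lower and a median of -0.17 over all genes. Centred on the hybridization controls, 5 were higher, 0 lower and the median was 0.60, beside 31.8%, 2.84% and 0.635 over all genes. Gt(ROSA)26Sor, the noncoding RNA of the Rosa26 locus, was the higher one at 9.41 in hybridized cells and 7.79 in live cells. The lower pair was 1110006O24Rik, at 4.35 in hybridized cells and 5.69 in live cells, and A630072M18Rik, at 5.08 in hybridized cells and 6.24 in live cells. Antisense transcripts in this set, such as Man2c1os (-0.81) and Rab26os (-0.38), cannot be told from their partner genes, since the strand of the labelled product is not given in the labels.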
